A study of Mus musculus with 6 samples.

Results

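The genes described here are 10 genes of the photoreceptor ribbon synapse, and their RNA was followed in single nuclei of rd10 mouse retinas that had been injected with IL-27 or saline. They were taken by symbol, namely Ctbp2, Bsn, Pclo, Rims2, Unc13b, Cacna1f, Cacna2d4, Cabp4, Stx3 and Egflam, and 10 of 10 were found among the 32285 genes of the count tables. The rule that names them uses no measured value, although they were chosen with earlier results of these data known. For each library, the molecules counted for every gene (unique molecular identifiers, UMIs) were summed over the nuclei of each cell type, with cell types named from marker genes that exclude these 10, and levels are given as UMIs per 1000000 UMIs of that sum (CPM).

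Rods and cones release glutamate at a ribbon synapse, in which a plate of protein anchored in the terminal holds synaptic vesicles close to the release site. Release is continuous in darkness and is driven by calcium that enters through L-type channels beneath the ribbon, so photoreceptors differ from most neurons, which release in response to action potentials. Bipolar cells (BC) receive this signal in the outer retina and have ribbons of their own in the inner retina, and several genes of this machinery are known from inherited forms of night blindness and cone-rod disease.

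All animals were of the strain B6.CXB1-Pde6b-rd10/J. These rd10 mice carry a mutation of Pde6b, the β subunit of the rod phosphodiesterase, and their rods degenerate in early postnatal life. Each retina received 1 intravitreal injection at postnatal day 18, of 20 ng recombinant IL-27, an immunoregulatory cytokine, or of saline, and was collected at postnatal day 20. Saline was represented by 3 libraries, numbered as replicates 1, 2 and 6, and IL-27 by 3 more, with the replicate numbers 4, 5 and 10. All were made from nuclei of flash frozen retina. The labels do not say which libraries came from which animals or eyes, or whether retinas were pooled, so the p-values measure the spread between these libraries. Every library came from a degenerating retina, and wild-type or uninjected retina was not analysed here. RNA was measured in nuclei, so transcripts in the cell body and terminal were not part of the measurement.

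The 6 libraries held 8968 to 9965 nuclei and 36678332 to 48260748 UMIs each, and after filtering and doublet removal 52192 nuclei remained. Of these, 51295 passed a filter on depth, and those with a named cell type entered the sums. They included 15056 rods, 3333 cones, 10336 BC, 12319 amacrine cells (AC), 2039 retinal ganglion cells (RGC) and 485 horizontal cells (HC). Sums held 2673968 to 5286118 UMIs for rods, 1418933 to 1723496 for cones and 6919467 to 10137077 for BC. The library of IL-27 replicate 10 stood apart, with the largest share of rods (41.3% of its nuclei against 23.9 to 32.8% in the other libraries) and the lowest median depth (2782 UMIs per nucleus against 3052 to 3787). The rod, cone and BC sums each carried their own markers at the highest level, but the 8 rod markers summed to 2585 to 3925 CPM in cones and 242 to 619 CPM in BC, against 7600.3 to 9911 CPM in rods, and the 8 BC markers summed to 1147 to 1358 CPM in rods against 11759 to 13188 CPM in BC. Xist, the RNA of the inactive X chromosome, stood at 2028 CPM in saline replicate 2 and 1999 CPM in IL-27 replicate 5 and at 0.409 CPM or less in the other libraries, so both groups held 1 such library, and the labels give no sex. Of the barcodes, 322 occurred in more than 1 library.

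The 10 genes lie on 8 chromosomes (GRCm38, GENCODE M21 gene models). Ctbp2 (ENSMUSG00000030970) spans chr7:132987563-133124354, Bsn (ENSMUSG00000032589) chr9:108096022-108190384, Pclo (ENSMUSG00000061601) chr5:14514918-14863459 and Rims2 (ENSMUSG00000037386) chr15:39198261-39684372. Unc13b (ENSMUSG00000028456) spans chr4:43058953-43264871, Cacna1f (ENSMUSG00000031142) chrX:7607083-7635196 and Cacna2d4 (ENSMUSG00000041460) chr6:119236526-119352407. Cabp4 (ENSMUSG00000024842) spans chr19:4135423-4144033, Stx3 (ENSMUSG00000041488) chr19:11775118-11819403 and Egflam (ENSMUSG00000042961) chr15:7206120-7398395. Their lengths run from 8.6 kb for Cabp4 to 486.1 kb for Rims2, and since counts of nuclear RNA depend on gene length, levels are compared here between cell types for 1 gene and not between genes. The Ctbp2 model overlaps that of Fgfr2 on the same strand, so the Ctbp2 count is uncertain to the extent that reads in the overlap were shared. The models of Bsn, Pclo, Cacna2d4, Cabp4 and Egflam overlap genes on the opposite strand only, and an effect of this on their counts was not tested.

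Ctbp2 needs particular care, because 1 gene makes both a nuclear corepressor that most cells use and RIBEYE, the main protein of the ribbon, whose transcript begins far downstream. In the gene models the transcript Ctbp2-201 starts 1.0 kb from the 5′ end of the gene and codes over 1335 bases, and Ctbp2-214 starts at position 133015248, 109.1 kb from that end, and codes over 2964 bases. Counts were made per gene from the 3′ ends of transcripts, so the Ctbp2 values below hold both products. The RefSeq windows around the downstream Ctbp2 start, that of the long transcript, and around the Stx3 start are shown because these were the windows of the 10 genes that held the letters described next. Each window runs from 250 bases before to 50 bases after the start (GRCm38.p6), is written 5′ to 3′ on the minus strand, and has the letters TAATCC or their reverse complement GGATTA, the core that the photoreceptor and bipolar cell factors CRX and OTX2 are known to bind, in capitals.
Ctbp2 downstream start, chr7:133015198-133015497: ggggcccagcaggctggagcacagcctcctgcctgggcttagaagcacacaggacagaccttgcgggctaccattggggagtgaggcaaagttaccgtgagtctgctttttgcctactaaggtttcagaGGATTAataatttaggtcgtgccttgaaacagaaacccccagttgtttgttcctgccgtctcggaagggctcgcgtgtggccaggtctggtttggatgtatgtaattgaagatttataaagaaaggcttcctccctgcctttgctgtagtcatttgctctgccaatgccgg
Stx3 start, chr19:11819354-11819653: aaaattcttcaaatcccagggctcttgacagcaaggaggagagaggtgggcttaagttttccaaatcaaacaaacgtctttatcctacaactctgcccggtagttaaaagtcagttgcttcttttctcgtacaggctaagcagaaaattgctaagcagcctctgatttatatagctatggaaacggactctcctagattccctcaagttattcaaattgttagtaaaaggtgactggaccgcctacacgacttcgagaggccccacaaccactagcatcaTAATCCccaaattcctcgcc
The downstream Ctbp2 window held the match at position -121 from the start and the Stx3 window at position 30. RefSeq windows were at hand for 7 of the 10 genes, 9 windows in all, and these were the only 2 of the 9 with the match. Over all 32851 windows of the same length, on both strands, 7.1% held it. The letters TGCTGA or TCAGCA, the core of the site bound by factors of the MAF family, to which the rod factor NRL belongs, were in 0 of the 9 windows and in 19.5% of all windows. These matches describe the letters in the windows only.

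The first question was where in this retina the 10 genes were expressed. Rods or cones had the highest mean of the 11 cell types for 7 genes (Ctbp2, Pclo, Rims2, Cacna1f, Cabp4, Stx3 and Egflam), BC for Unc13b and Cacna2d4, and AC for Bsn. Outside rods and cones, Cabp4 stood at 3.15 to 9.28% of its rod level in the mean of each type, and Egflam shared its photoreceptor level with pericytes alone. With each nucleus thinned to 1000 UMIs, so that depth was equal, the type with the largest share of nuclei with a UMI was the same for 8 genes and moved from rods to cones for Pclo and from rods to pericytes for Egflam.

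**Figure D1:**
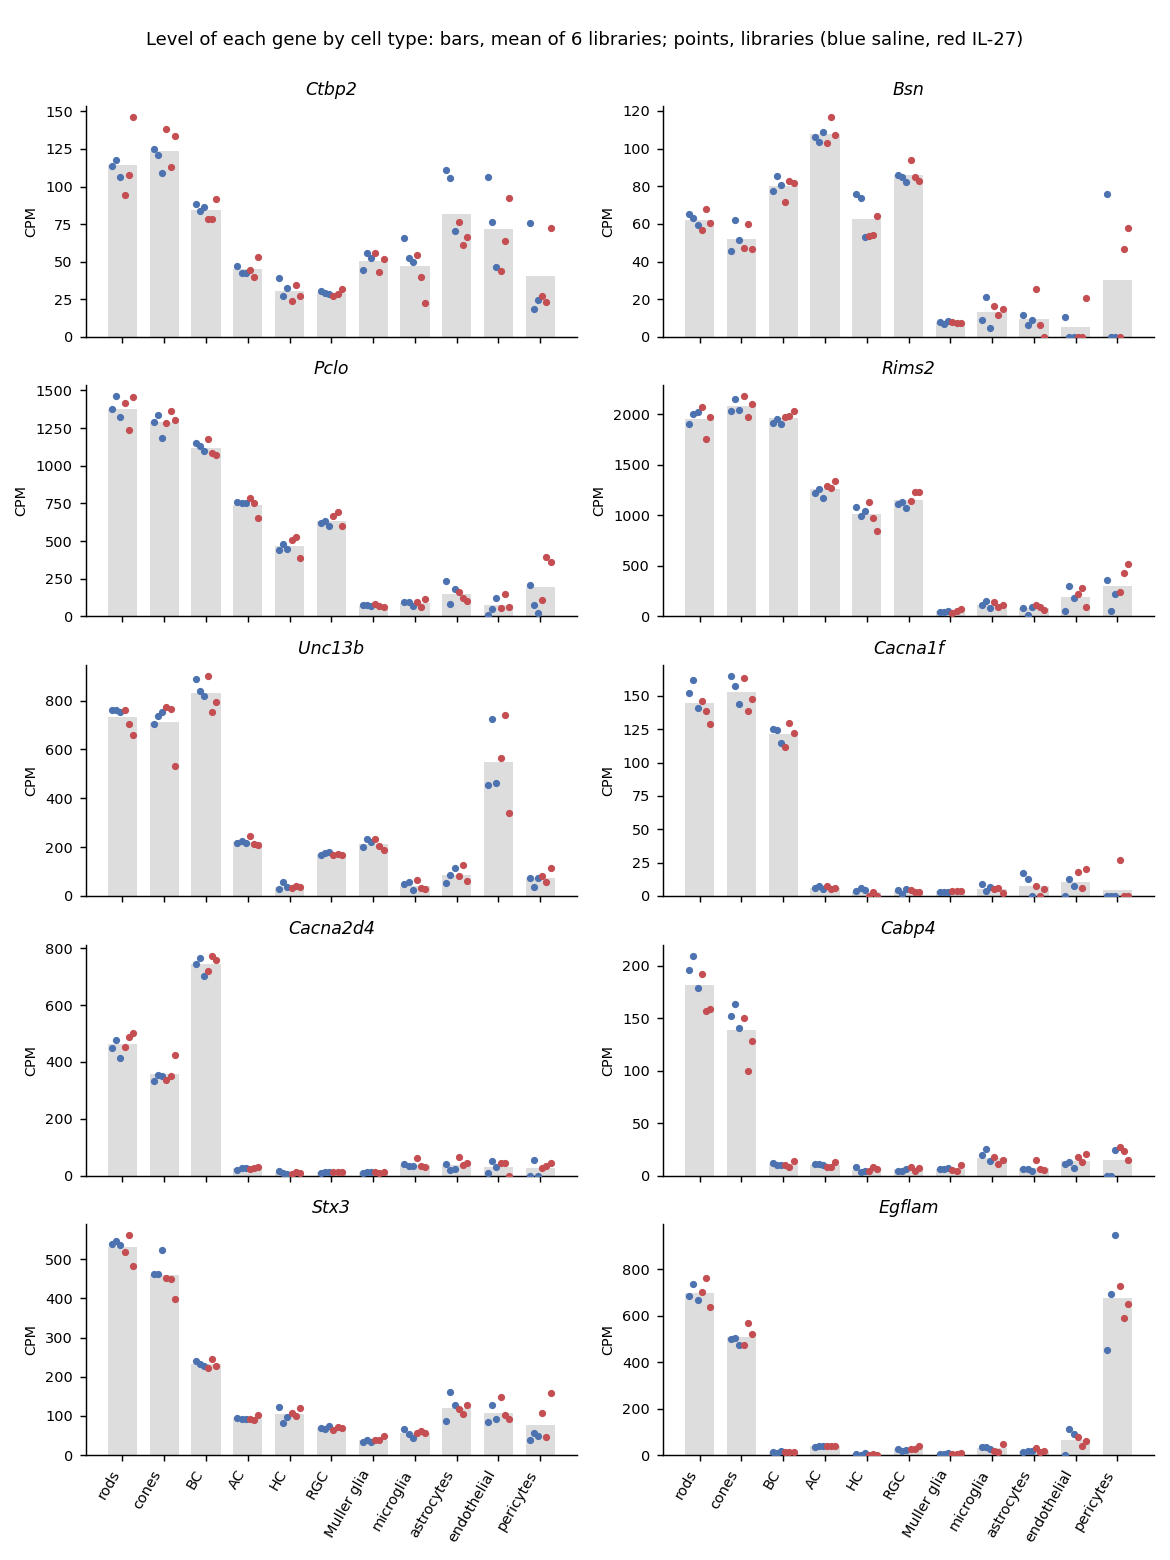
Level of each of the 10 genes in the 11 named cell types, in CPM on axes from 0. Bars are means of 6 libraries, each point is 1 library (blue saline, red IL-27), and Muller glia stands for cluster 1. Rods and cones lie at or near the top for most genes, BC sit far below both for Cabp4 and Egflam, and the pericyte points of Egflam lie around those of rods and cones.

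The scaffold of the ribbon and of the active zone around it was represented by RIBEYE from Ctbp2, bassoon from Bsn, which anchors the ribbon, and its larger relative piccolo from Pclo. The Ctbp2 level was 123 ± 11.4 CPM (SD, n = 6 libraries) in cones and 114 ± 17.6 CPM in rods, and these ranges overlapped, whereas the BC level of 84.4 ± 5.44 CPM lay below both. Ctbp2 was present in every type, down to 29.4 ± 1.63 CPM in RGC, and its BC range overlapped that of astrocytes at 81.8 ± 21.1 CPM. Bsn had a different order, with 108 ± 5.06 CPM in AC above the ranges of all other types, 85.8 ± 4.22 CPM in RGC, 80.0 ± 4.89 CPM in BC, 62.6 ± 10.5 CPM in HC, 62.1 ± 3.93 CPM in rods and 52.1 ± 7.32 CPM in cones. From RGC down to cones, each type overlapped the next in this order, although BC lay above rods and cones in 6 of 6 libraries. Pclo stood at 1378 ± 86.9 CPM in rods and 1293 ± 60.1 CPM in cones, which overlapped, at 1118 ± 40.8 CPM in BC and at 743 ± 46.7 CPM in AC. Each of the last 2 Pclo levels lay below the range of the type before it.

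Docking and priming of vesicles were represented by Rims2, a scaffold that links vesicles to calcium channels, and Unc13b, the priming factor Munc13-2. Rims2 formed a plateau of 2078 ± 76.3 CPM in cones, 1959.8 ± 46.9 CPM in BC and 1956 ± 111 CPM in rods, neighbours that overlapped, above 1258 ± 57.2 CPM in AC, 1154 ± 65.6 CPM in RGC and 1012 ± 99.5 CPM in HC. The types that are not neurons lay between 49.0 and 305 CPM in the mean of Rims2. Unc13b was at 833 ± 56.9 CPM in BC, 733 ± 42.5 CPM in rods and 712 ± 90.9 CPM in cones, again overlapping neighbours. The AC and RGC levels of Unc13b, 222 ± 12.4 and 172 ± 5.15 CPM, lay below these ranges, and its endothelial level of 548 ± 161 CPM overlapped that of cones.

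The calcium channel of the ribbon has Cacna1f as its pore, Cacna2d4 as its auxiliary subunit and Cabp4 as a calcium-binding protein that shifts its opening. Cacna1f stood at 153 ± 10.9 CPM in cones, 145 ± 11.6 CPM in rods and 121 ± 6.88 CPM in BC, with overlap between neighbours, and the means of the other 8 types lay between 2.95 and 10.8 CPM. Cacna2d4 had the same 3 types at the top but in another order, 744 ± 28.2 CPM in BC above the ranges of rods at 463 ± 32.1 CPM and cones at 358 ± 34.5 CPM, and 9.48 to 38.7 CPM elsewhere. Cabp4 was at 182 ± 21.3 CPM in rods and 139 ± 22.4 CPM in cones, which overlapped, and at 5.57 to 17.1 CPM in the other 9 types, including 10.6 ± 1.89 CPM in BC. The pore and the auxiliary subunit were therefore measured in photoreceptors and BC, and the modulator at a high level in photoreceptors alone.

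The low BC values were set beside those of rod markers. In BC, the rod markers Pde6a, Nr2e3, Nrl and Gnat1 stood at 2.93%, 3.43%, 5.30% and 6.71% of their own rod level in the mean over libraries, while Cabp4 stood at 5.91% and Egflam at 1.87% of the rod level. Thinned to 1000 UMIs, 0.915% of BC and 1.19% of AC nuclei had a Cabp4 UMI against 16.3% of rods and 12.4% of cones. The unthinned shares were 4.46% of BC, at a median of 4290.5 UMIs per nucleus, 5.603% of AC, at a median of 5493 UMIs, and 21.9% of rods, at a median of 1285 UMIs. The Cabp4 share in BC did not exceed that in AC, and whether these UMIs came from BC or from free RNA was not tested. Cacna1f behaved otherwise, with 13.4% of rods, 13.8% of cones and 11.9% of BC against 0.481% of AC. Thinning left out 3728 rods below that depth, 1471 of them saline and 2257 IL-27.

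Fusion and the cleft were represented by 1 gene each. Stx3 encodes syntaxin 3, the syntaxin of ribbon synapses, and was at 531 ± 27.4 CPM in rods and 459 ± 39.9 CPM in cones, which overlapped, and at 233 ± 8.43 CPM in BC, below both, with 38.4 to 121 CPM elsewhere. Egflam encodes pikachurin, a protein of the synaptic cleft that binds dystroglycan and is needed to place BC dendrites at the ribbon. Its level was 699 ± 45.6 CPM in rods, 507 ± 34.3 CPM in cones and 13.0 ± 1.91 CPM in BC, the cells on the other side of that cleft. In pericytes Egflam stood at 454, 693 and 948 CPM in saline replicates 1, 2 and 6 and 729.8, 592 and 650.5 CPM in IL-27 replicates 4, 5 and 10, from 117 nuclei and 223 UMIs of the gene in all. The pericyte values overlapped those of rods in both groups and those of cones in the saline group, and 54.3% of pericyte nuclei had an Egflam UMI at 1000 UMIs against 47.1% of rods, 36.7% of cones and 0.364% of nuclei of cluster 1. That cluster was named Muller glia from its 8 markers, although the endothelial marker Flt1 was among its top 10 genes.

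Rods, cones and BC were then compared within libraries with edgeR's quasi-likelihood test, the library as a block, on the TMM scale, which centres the differences on the bulk of genes. The scale matters here: with library totals in place of TMM the median of all genes tested moved to -0.22 for cones against rods, -0.43 for BC against rods and -0.26 for BC against cones, in log2 units. The split of all genes called, higher against lower, was then 2129 to 5468, 3820 to 8925 and 3371 to 6731, against 3200 to 3325, 5836 to 5952 and 4584 to 4618 with TMM. A large share of all genes differed in these comparisons, so counts of the 10 genes are given beside that share.

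Between cones and rods, 7 of the 10 genes differed at an adjusted p under 0.05 in edgeR, against 53% of the 12310 genes tested, with 4 higher and 3 lower in cones. With library totals the split was 0 higher and 5 lower. Higher on the TMM scale in cones were Ctbp2, with a log2 difference of 0.32 (SE 0.0757, edgeR adjusted p = 0.00136), Rims2 with 0.29, Cacna1f with 0.28 and Unc13b with 0.15, the last of which had the opposite sign with library totals (-0.05) and lost its call there. With library totals the differences of Ctbp2, Rims2 and Cacna1f were 0.12, 0.09 and 0.08 and none of the 3 passed. Lower in cones were Egflam (-0.27, SE 0.0467), Cabp4 (-0.19) and Cacna2d4 (-0.18), which passed on both scales. Of all genes, 26% were called higher and 27% lower. In CPM, the cone level was 0.727 of the rod level for Egflam (range over libraries 0.678 to 0.815), 0.761 for Cabp4 and 0.773 for Cacna2d4, and below 1 in 6 of 6 libraries for each. Bsn, Pclo and Stx3 did not pass, with log2 differences of -0.06, 0.11 and -0.02, while with library totals Bsn (-0.26) and Stx3 (-0.21) were called lower in cones and Pclo was -0.09 and not called. Among the rod markers, Pde6a stood in cones at 12.7%, Gnat1 at 19.0% and Sag at 63.7% of their rod level. Whether these UMIs came from cones or from free RNA, and their part in the differences, was not tested.

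Between BC and rods, 9 of the 10 genes differed, against 78.8% of 14965 genes, with 6 higher and 3 lower in BC, and 3 higher and 6 lower with library totals. The widest gaps were those of Egflam, with a log2 difference of -5.33, and Cabp4, with -3.69, followed by Stx3 with -0.77, all lower in BC, where 39.8% of all genes were called lower. Higher in BC were Cacna2d4 with 1.10, Bsn with 0.78, Unc13b with 0.60 and Rims2 with 0.42, where 39% of all genes were called higher, though the Rims2 value was 0.00 and not called with library totals. In CPM, Cacna2d4 stood at 1.61 times its rod level and Bsn at 1.29 times, above 1 in 6 of 6 libraries for both, while Rims2 was above 1 in 3 of 6. Pclo and Cacna1f passed with small TMM differences of 0.11 and 0.16 but reversed to -0.30 and -0.25 with library totals, also past the threshold, so no direction is drawn for them. Ctbp2 did not pass (-0.02, SE 0.0545), although with library totals it was called lower in BC at -0.43, the size of the shift of all genes.

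Between BC and cones, 7 of the 10 genes differed, against 66.1% of 13929 genes, with 3 higher and 4 lower in BC, and 3 higher and 6 lower with library totals. Cacna2d4 (1.30), Bsn (0.86) and Unc13b (0.47) were higher in BC, where 32.9% of all genes were, and Egflam (-5.04), Cabp4 (-3.47), Stx3 (-0.74) and Ctbp2 (-0.31) were lower, where 33.2% of all genes were, as log2 differences on the TMM scale. Pclo at 0.03, Rims2 at 0.16 and Cacna1f at -0.09 did not pass, and Rims2 was -0.08 and not called with library totals. The value of Cacna1f became -0.33 with library totals and passed there, and that of Pclo became -0.21 and passed. The BC sums are the same in the comparisons with rods and with cones.

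**Figure D2:**
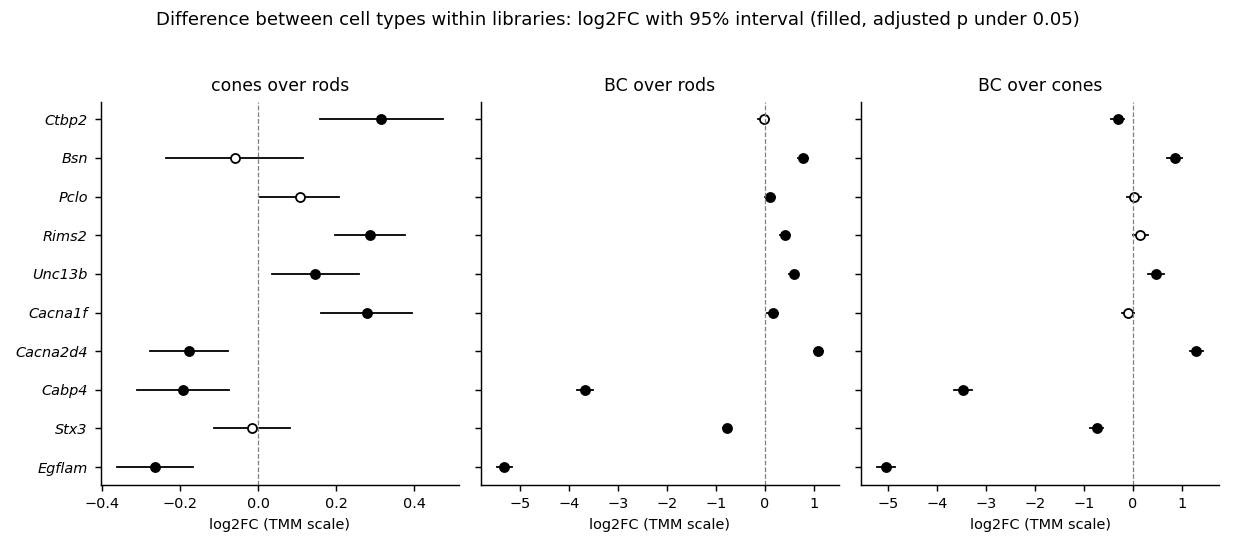
Log2 difference of each gene between cell types, with its 95% confidence interval, from edgeR with the library as a block on the TMM scale. The left axis covers a narrower range than the others, and filled points have an adjusted p under 0.05. Egflam and Cabp4 lie far below 0 in BC against either photoreceptor and Cacna2d4 above it, while the small positive values of Unc13b and Pclo in cones against rods, of Pclo and Cacna1f in BC against rods and of Pclo and Rims2 in BC against cones turn negative with library totals.

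Within BC, a cluster of 3167 nuclei was named rod BC, clusters of 1103 and 1030 nuclei ON cone BC and clusters of 1176 and 607 nuclei OFF cone BC from their markers. BC held 10423 nuclei in all before the filter on depth. The other 4 BC clusters were left without a subclass, and the levels below do not cover them. Levels of Unc13b, Cacna2d4, Rims2, Cacna1f and Pclo varied among these subclasses by more than their spread over libraries. Unc13b was at 1117 ± 138 CPM in rod BC, 771 ± 37.8 CPM in OFF cone BC and 467 ± 24.6 CPM in ON cone BC, and the ranges of the 3 did not overlap. The rod BC level was 2.41 times the ON cone BC level in the mean of 6 libraries, from 1.72 to 2.85, with the lowest ratio in IL-27 replicate 5. Cacna2d4 stood in the order rod BC at 947 ± 24.5, ON cone BC at 726 ± 28.6 and OFF cone BC at 563 ± 29.4 CPM, again without overlap.

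Rims2 had the reverse emphasis, at 1555 ± 57.4 CPM in rod BC, 1949 ± 48.4 CPM in OFF cone BC and 2336 ± 56.7 CPM in ON cone BC. Its rod BC level was 0.666 of the ON cone BC level and lower in 6 of 6 libraries. Pclo peaked in OFF cone BC at 1590.0 ± 39.9 CPM, against 1123 ± 69.6 CPM in rod BC and 946 ± 50.8 CPM in ON cone BC. The Cacna1f level was 137 ± 5.79 CPM in ON cone BC, above its ranges in rod BC (100.1 ± 7.58 CPM) and OFF cone BC (105 ± 12.5 CPM). Among the 3 named subclasses, pore and auxiliary subunit thus had their highest levels in different ones. Ctbp2 was at 67.1, 93.8 and 87.6 CPM, Bsn at 72.7, 89.9 and 76.5 CPM and Stx3 at 245, 234 and 217 CPM in the means of rod BC, ON cone BC and OFF cone BC. Cabp4 stood between 9.66 and 11.3 CPM in the 3 subclasses and Egflam between 4.26 and 22.0 CPM, far below their levels in rods. These are descriptions on the CPM scale with no test.

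**Figure D3:**
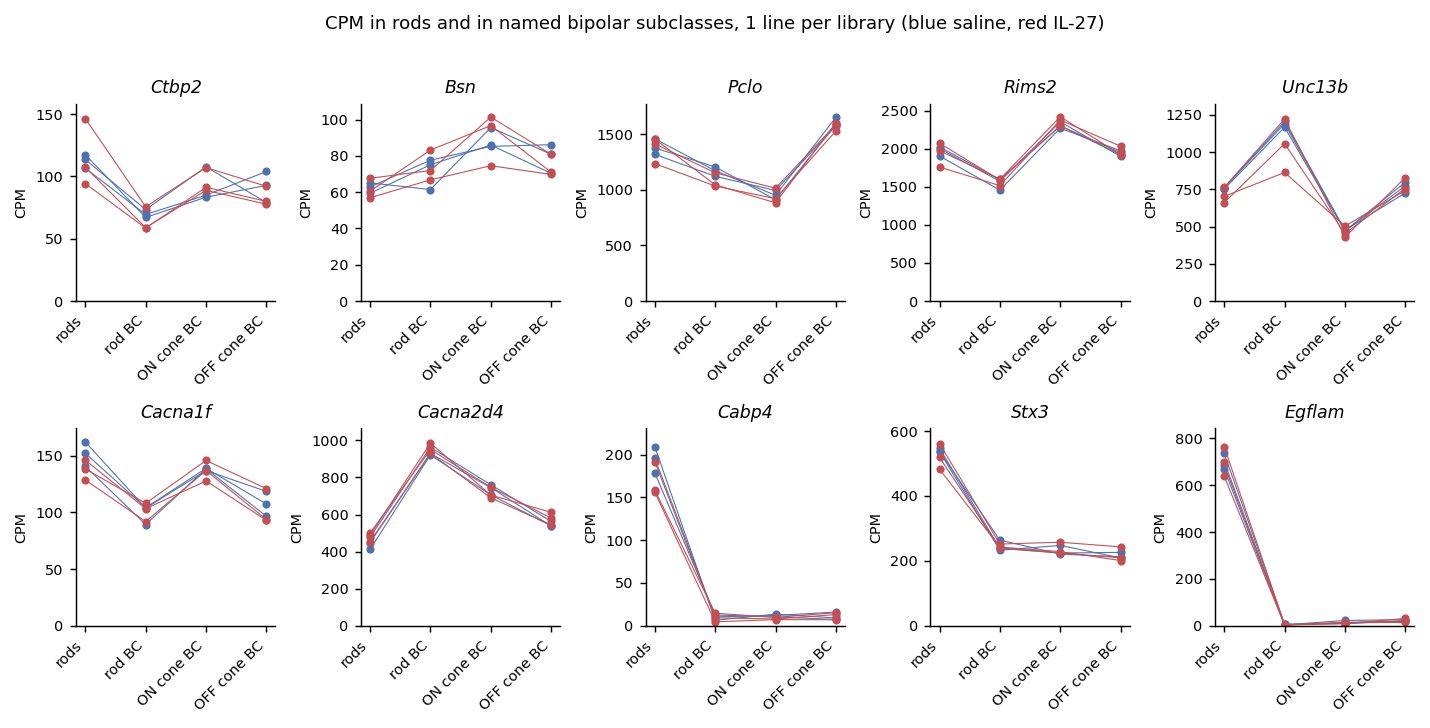
Level of each gene in rods, rod BC, ON cone BC and OFF cone BC, in CPM from 0, with the points of 1 library joined by a line (blue saline, red IL-27). Among the BC subclasses Unc13b and Cacna2d4 are highest in rod BC, Rims2 and Cacna1f in ON cone BC and Pclo in OFF cone BC, with no overlap between the highest subclass and the next for these 5 genes.

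The profile of each gene over the 11 cell types, as mean log2(CPM + 1), was compared with those of 15141 genes. The nearest 3 for Cacna1f were Slc1a7 (Pearson r = 0.984 over 11 types), its own auxiliary subunit Cacna2d4 (0.972) and Gnb3 (0.970), and those for Cacna2d4 were Otx2os1 (0.983), Otx2 (0.976) and Klc3 (0.974). Cabp4 was nearest to Fabp12 (0.991), A230083N12Rik (0.990) and Frmpd2 (0.988). For Rims2 they were Snap91 (0.989), Syt1 (0.987), the calcium sensor of vesicle fusion, and Ric3 (0.983), and for Pclo they were Rpgr (0.983), Plekha6 (0.972) and Svop (0.966). Bsn was nearest to Gm14827 (0.974), Gm45645 (0.968) and Gdap1 (0.965), and Egflam to Thap12 (0.969), B3gat3 (0.960) and Mrpl12 (0.958). Ctbp2, Unc13b and Stx3 had looser matches, led by Cox20 (0.952), Limch1 (0.943) and Pate2 (0.954), followed by Pea15a (0.929) and Lgalsl (0.926) for Ctbp2, Ipo8 (0.923) and Pnkd (0.911) for Unc13b, and Cfap61 (0.950) and Ppp1r10 (0.948) for Stx3. Among the 10 genes, Pclo and Rims2 (0.952) and Bsn and Pclo (0.908) had like profiles, and Bsn and Ctbp2 did not (-0.11). The points of each correlation come from the same 6 libraries, so r is given as a description.

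The second question was whether IL-27 moved these genes within a cell type 2 days after injection. In rods, cones and BC, 0 of the 10 genes differed between IL-27 and saline at an adjusted p under 0.05 in edgeR, and 0 did at an unadjusted p under 0.05 or in DESeq2. The share of all genes called was 0.00731% of 13679 in rods, 0% of 11217 in cones and 0% of 15197 in BC, so few genes of any kind were called, and 3.42%, 3.43% and 3.17% had an unadjusted p under 0.05. The 95% confidence intervals of the 10 genes stayed within -0.44 to 0.34 log2 units in rods, -0.57 to 0.39 in cones and -0.43 to 0.39 in BC. The median log2 difference of the 10 genes was -0.03 in rods, -0.01 in cones and 0.00 in BC, beside 0.00 for all genes in each.

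**Figure D4:**
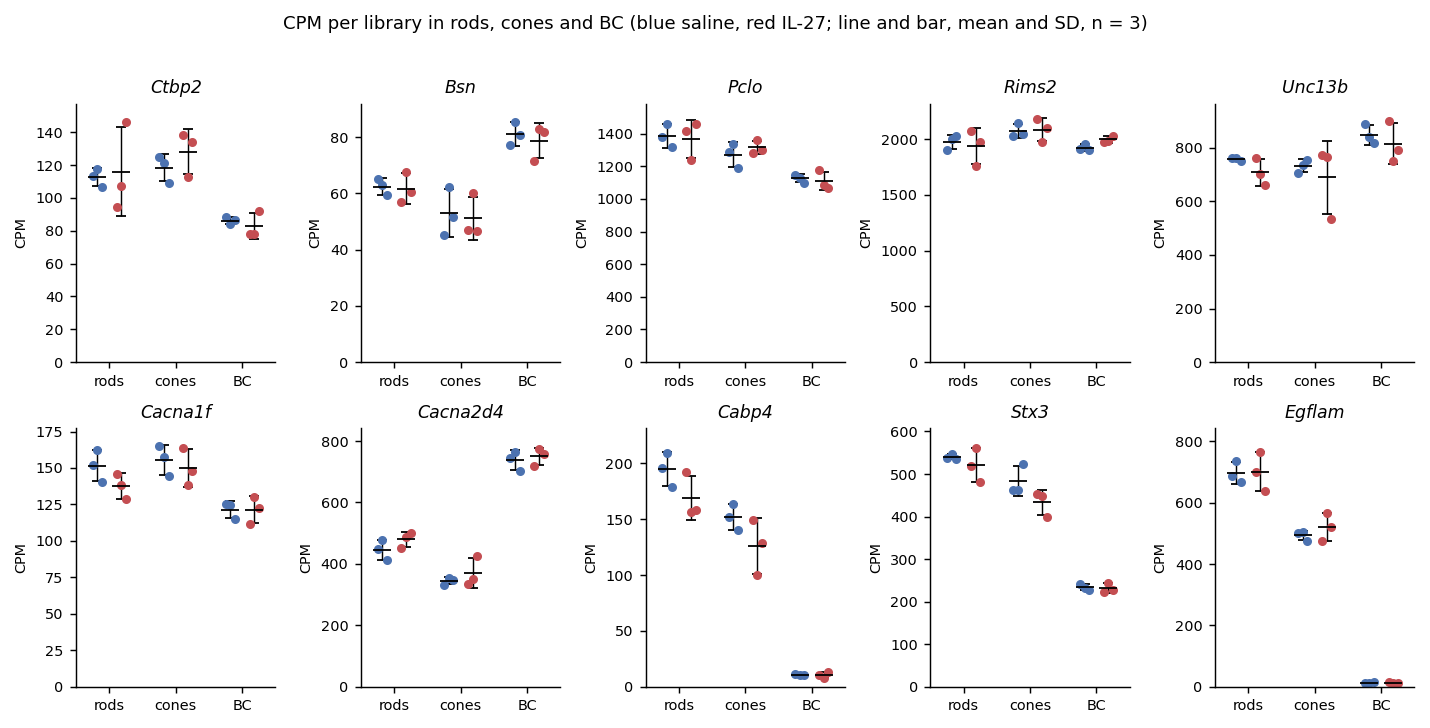
Level of each gene in rods, cones and BC of the saline and IL-27 libraries, in CPM from 0, with 1 point per library (blue saline, red IL-27) and a line and error bar for the mean and SD of 3. The groups overlap for 10 of 10 genes in rods and 9 of 10 in cones and in BC, the exceptions being Stx3 in cones and Rims2 in BC.

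Ctbp2 in rods was at 114, 117 and 107 CPM in saline replicates 1, 2 and 6 and 94.3, 107 and 146 CPM in IL-27 replicates 4, 5 and 10. IL-27 libraries held both the lowest and the highest value, and the log2 difference of 0.05 became -0.15 without IL-27 replicate 10. In cones, with libraries in the same order throughout, Ctbp2 was at 125, 121 and 109 CPM in saline and 138, 113 and 134 CPM in IL-27. Bsn in rods was at 65.1, 62.9 and 59.4 CPM in saline and 57.0, 67.7 and 60.5 CPM in IL-27, and in cones at 45.4, 62.2 and 51.6 CPM and 47.0, 60.1 and 46.5 CPM, with overlap in both types. Bsn in cones rests on 66 to 96 UMIs per library, the fewest of the 10 genes in either photoreceptor. Pclo in rods was at 1378, 1460.4 and 1320.1 CPM in saline and 1415, 1237 and 1458 CPM in IL-27. The lowest rod value of Pclo was IL-27 replicate 5, which in cones had the highest, 1290.2, 1336 and 1187 CPM in saline standing against 1282, 1361 and 1303 CPM in IL-27. The scaffold genes thus had log2 differences between -0.02 and 0.05 in rods.

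Rims2 in rods was at 1904, 2001 and 2023 CPM in saline and 2072, 1759 and 1974 CPM in IL-27, and in cones at 2031, 2146 and 2044 CPM and 2177, 1974 and 2099 CPM, and the groups overlapped in both. In BC the groups of Rims2 did not overlap, at 1911, 1956 and 1904 CPM in saline and 1976, 1985 and 2027 CPM in IL-27. This was 1 of the 10 genes, against 8.92% of all genes tested in BC whose groups did not overlap, and its log2 difference of 0.07 (SE 0.0539, 95% confidence interval -0.05 to 0.19) had an unadjusted p of 0.207 in edgeR. Unc13b in rods was at 762, 761 and 752 CPM in saline and 763, 702 and 661 CPM in IL-27. In cones the saline values of Unc13b were 706, 738 and 754 CPM and those of IL-27 were 773, 766 and 533 CPM, so IL-27 replicate 10 alone lay below and the other IL-27 libraries above the saline range. Its log2 difference in cones was -0.07 with all libraries and 0.10 without IL-27 replicate 10.

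For the channel genes, Cacna1f in rods was at 152, 162 and 141 CPM in saline and 146, 138 and 129 CPM in IL-27, a log2 difference of -0.14 with a 95% confidence interval of -0.35 to 0.08. The gene is X-linked, and with Xist as a covariate the difference was again -0.14. Cacna1f in cones was at 165, 157 and 144 CPM in saline and 164, 138 and 148 CPM in IL-27. Cacna2d4 in rods was at 448, 477 and 412 CPM in saline and 453, 488 and 501 CPM in IL-27, with a log2 difference of 0.11. In cones Cacna2d4 was at 332, 354 and 349 CPM in saline and 335, 349.7 and 426 CPM in IL-27, where IL-27 replicate 10 set the upper end. The pore and the auxiliary subunit overlapped between the groups in both photoreceptors.

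Cabp4 had the largest difference of the 10 genes in both photoreceptors, and it passed in neither. Its rod levels were 196, 209.5 and 179 CPM in saline and 192, 156 and 159 CPM in IL-27, with a log2 difference of -0.20 (SE 0.109, 95% confidence interval -0.44 to 0.03, edgeR unadjusted p = 0.0856, adjusted p = 0.999). Its cone levels were 152, 163 and 141 CPM in saline and 149.7, 99.9 and 128 CPM in IL-27, with a log2 difference of -0.26 (SE 0.146, edgeR unadjusted p = 0.0993). IL-27 replicates 5 and 10 lay below all saline libraries in both types and IL-27 replicate 4 lay within their range. Leaving out 1 library at a time gave -0.32 to -0.15 in rods and -0.42 to -0.13 in cones. The lowest Cabp4 values were those of IL-27 replicate 5. In rods, the 8 rod markers summed to 7600.3 CPM in that library, the lowest of the 6 libraries, and to 9911 CPM in IL-27 replicate 10, the highest. Their part in the Cabp4 values was not tested.

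Stx3 in rods was at 538, 547 and 536 CPM in saline and 519, 561 and 482 CPM in IL-27. In cones its groups did not overlap, with 463, 463 and 524 CPM in saline above 453, 449 and 399.6 CPM in IL-27, the only 1 of the 10 genes in cones, against 8.73% of all genes. The log2 difference in cones was -0.15 (95% confidence interval -0.40 to 0.11, edgeR unadjusted p = 0.236). Egflam in rods was at 686, 736 and 668 CPM in saline and 701, 764 and 638 CPM in IL-27, and in cones at 501, 504 and 476 CPM and 475, 568 and 520.1 CPM, with the saline libraries inside the IL-27 range in rods. In rods, 0 of the 10 genes had groups that did not overlap, against 8.03% of all genes. In BC, Cacna2d4 ran from 701 to 774 CPM over the 6 libraries, Unc13b from 753 to 901 CPM, Pclo from 1068 to 1176 CPM, Stx3 from 223 to 245 CPM, Cacna1f from 112 to 129.9 CPM, Ctbp2 from 78.1 to 91.8 CPM and Bsn from 71.7 to 85.5 CPM, all with overlap of the groups.

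**Figure D5:**
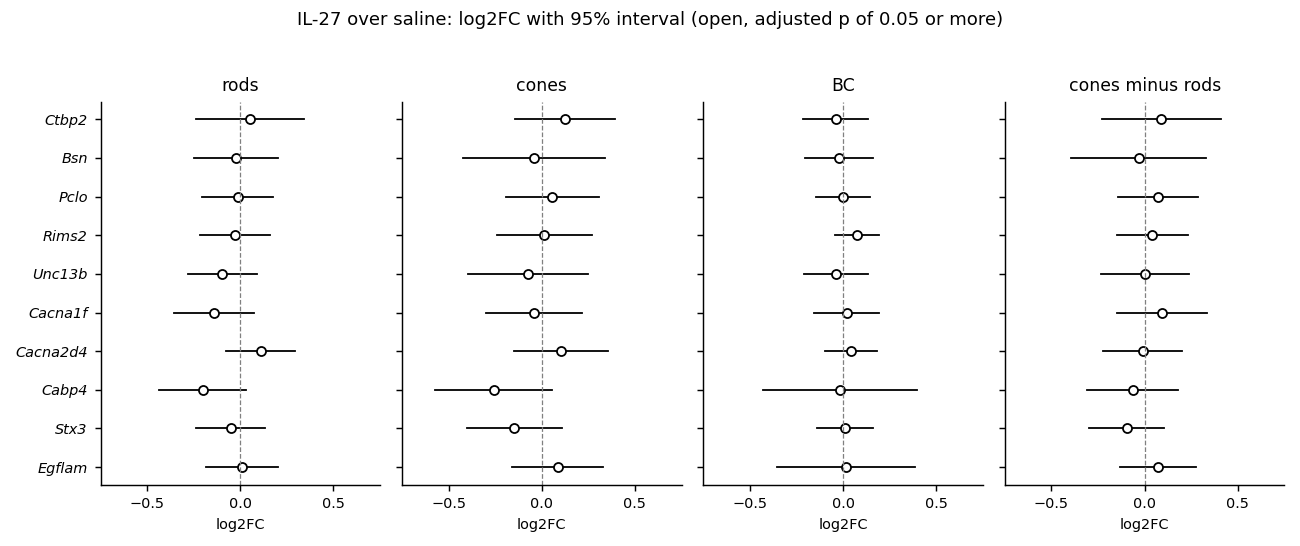
Log2 difference between IL-27 and saline for each gene in rods, cones and BC, and the difference of the effects in cones and rods, on the TMM scale of edgeR, with 95% confidence intervals. Every interval drawn includes 0, and Cabp4 has the lowest estimate in rods (-0.20) and in cones (-0.26).

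Whether the effect differed between the photoreceptors was tested as the difference of the effects, cones minus rods, in 1 fit. In edgeR 0 of the 10 genes passed, and 0 did at an unadjusted p under 0.05 or in DESeq2, against 0.0381% of 13125 genes called, 0.00762% with a higher and 0.0305% with a lower effect in cones. The differences ran from -0.10 for Stx3 to 0.09 log2 units, and the smallest unadjusted p in edgeR was 0.333. In the 8 other cell types 0 of the members tested passed an adjusted p under 0.05 in edgeR, against 0.00588% of all genes in AC, 0.0366% in cluster 1 and 0% in the other 6. The members tested there were 10 in AC, RGC and cluster 1, 8 in microglia, 6 in HC, 5 in astrocytes and 3 in endothelial cells and pericytes.

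Among those types, 2 members had an unadjusted p under 0.05, Egflam in RGC and Pclo in pericytes, and they are named for that reason after their values were seen. Of all genes, 3.41% had such a p in RGC and 3% in pericytes, and 2.91% in AC, 4.96% in HC, 4.88% in cluster 1, 3.05% in microglia, 3.5% in astrocytes and 3.32% in endothelial cells. Egflam in RGC was at 25.4, 17.1 and 23.9 CPM in saline and 28.2, 28.7 and 39.5 CPM in IL-27, with a log2 difference of 0.51 (SE 0.179, edgeR unadjusted p = 0.0125, adjusted p = 0.99958). Pclo in pericytes was at 208, 74.9 and 24.3 CPM in saline and 108, 395 and 361 CPM in IL-27, with a log2 difference of 1.56 (95% confidence interval 0.15 to 2.98, edgeR unadjusted p = 0.0336, adjusted p = 0.996) from 79 UMIs in all. The groups of Egflam in RGC did not overlap and those of Pclo in pericytes did. Rims2 did not overlap between the groups in AC, at 1220.0, 1255 and 1175 CPM in saline and 1289.9, 1265 and 1342 CPM in IL-27, or in RGC, at 1116, 1131 and 1069 CPM and 1144, 1231 and 1233 CPM, with the IL-27 libraries above in both as in BC. Its log2 difference was 0.10 in AC (edgeR unadjusted p = 0.107) and 0.14 in RGC (edgeR unadjusted p = 0.0636). The sums of these types come from the same libraries, so their directions are not independent. Cacna1f did not overlap in cluster 1, at 3.20, 2.77 and 3.24 CPM in saline and 3.75, 3.66 and 3.96 CPM in IL-27, levels far below those of photoreceptors. Groups that did not overlap made up 8.52% of all genes in AC, 9% in RGC and 10.4% in cluster 1, against 1 of 10, 2 of 10 and 1 of 10 members, and no member was without overlap in HC, microglia, astrocytes, endothelial cells or pericytes, where 9.86%, 8.37%, 8.54%, 8.54% and 7.78% of all genes were.

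A wider set of 49 presynaptic and cleft genes in 5 lists was read for the same contrasts. With IL-27, 0 of 48 tested in rods, 0 of 44 in cones and 0 of 49 in BC passed an adjusted p under 0.05 in edgeR, and 1, 0 and 2 had an unadjusted p under 0.05. Named after their values were seen, those in BC were Cplx1, a complexin that clamps vesicle fusion, with a log2 difference of 0.52 (edgeR unadjusted p = 0.0355), and Dmd, which encodes dystrophin of the dystroglycan complex, with 0.12 (edgeR unadjusted p = 0.0431). The gene of each list with the most UMIs in rods serves as its example. Erc2, an active zone scaffold, was at 727 ± 21.5 CPM (SD, n = 3) in saline and 806 ± 79.9 CPM in IL-27 rods, and Cacnb2, the β subunit of the calcium channel, at 2171 ± 49.2 and 2147 ± 229 CPM. Syt1 was at 5373 ± 304 and 5626 ± 523 CPM, Sv2b, a synaptic vesicle protein, at 745 ± 27.7 and 757 ± 43.9 CPM, and Dmd, from the cleft list, at 6179.5 ± 92.9 and 6298 ± 607 CPM. The IL-27 spread of each example in rods was wider than its saline spread.

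Between cell types the wider lists had their own balance. In BC against rods, 9 of 10 further active zone scaffold genes were higher and 0 lower, 6 of 8 channel and calcium sensor genes were higher and 1 lower, 5 of 12 vesicle fusion genes were higher and 5 lower, 4 of 9 synaptic vesicle genes were higher and 4 lower, and 4 of 10 cleft genes were higher and 5 lower, on the TMM scale, where the split of the channel list with library totals was 6 and 2, of the vesicle list 3 and 5 and of the cleft list 4 and 6. The corresponding shares of all genes were 39% higher and 39.8% lower. In cones against rods, the counts of higher and lower genes were 5 and 1 of 10 scaffold genes, 3 and 2 of 7 channel genes, 4 and 5 of 11 fusion genes, 6 and 3 of 9 vesicle genes and 5 and 3 of 9 cleft genes, against 26% and 27% of all genes. With library totals the split of the scaffold list was 7 higher and 1 lower in BC against rods and 2 higher and 2 lower in cones against rods, and that of the fusion list was 4 and 8 in BC and 0 and 6 in cones. In cones against rods it was 2 and 4 for the channel list, 5 and 3 for the vesicle list and 4 and 3 for the cleft list, so the balance of the scaffold, fusion and channel lists in cones against rods depends on the scale.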

How the data were processed

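Nuclei from retinas of 6 libraries, 3 saline and 3 IL-27, were profiled by 3′ single-nucleus RNA-seq (10x Genomics). The authors deposited raw UMI counts per gene and nucleus for each library. The submitters' processing notes name Cell Ranger 9.0.1 and Seurat 5.2.1 as tools, the reference was the 10x Genomics mouse reference, and its genome build is not given in the sources used here.

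From these counts, nuclei were kept if they held over 500 UMIs and 200 or more genes, with mitochondrial UMIs under 5%, and 4013 doublets were removed with Scrublet at a rate of 8% (scanpy 1.11.5). Nuclei were clustered on 2000 variable genes, 25 principal components and 20 neighbours at a Louvain resolution of 0.25. The 10 genes and the wider lists were left out of this clustering. Clusters were named where at least 3 markers of a type were detected, and 829 nuclei stayed unnamed. For the filter on depth, 1 median of the log2 UMI counts was taken over all retained nuclei together, not within each type. Nuclei further from it than 2 median absolute deviations did not enter the sums. Rods went from 15582 to 15056 nuclei and RGC from 2177 to 2039, while astrocytes stayed at 293 and pericytes at 117. Details of the naming were set after the clusters were seen. Sums per library and type were tested with edgeR 4.0.16 (quasi-likelihood, TMM, filterByExpr at 10 counts, Benjamini-Hochberg over all genes tested), with group as the term within a type and the library as a block between types. Shares of nuclei were also read after thinning to 1000 UMIs. Gene positions came from GENCODE M21, which matched 32158 of the 32285 gene IDs, and start windows from RefSeq. The tests were checked on simulated data.

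All 10 genes were named in the comparisons of rods, cones and BC with each other and for IL-27 in rods and cones. Only some members were named in the other tests. In types other than rods, cones and BC they were picked by an unadjusted p under 0.05 or by groups that did not overlap. Of the wider lists, a gene was named where it passed, and otherwise the gene with the most UMIs in rods. The values of 1 listed gene and of 1 rod marker are not reported here. The 3 genes nearest in profile were taken among genes of at least 10 CPM in 1 type. The members and lists were chosen with earlier results of these data known. Alternatives were DESeq2 1.42.0, DESeq2 size factors, library totals, no filter or 50 counts, all retained nuclei, no doublet removal, a limit of 1% mitochondrial UMIs, resolution 0.5, the listed genes kept in the clustering, Xist as a covariate and each library left out. Sampling of UMIs limits the precision: the sums behind a tested member in rods, cones or BC held at least 66 UMIs per library.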

Additional observations from a re-analysis of the deposited data

Results flagged for a closer look

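Of 30 within-library ratios of the 10 genes between rods, cones and BC, 3 had 1 outlying library of 6 by Dixon's test. These were 10% of the ratios, where chance gives about 1 in 20 for independent ratios. The ratios of a gene share the same sums and are not independent, so no excess over that rate is drawn. The Pclo level of cones over rods was 1.101 in IL-27 replicate 5 against 0.8937 to 0.9366 in the other libraries. The Cabp4 level of cones over rods was 0.6391 in the same library against 0.7759 to 0.8091 in the others. The Cabp4 level of BC over rods was 0.08538 in IL-27 replicate 10 against 0.04927 to 0.05958 in the others. The 8 rod markers summed to 619 CPM in BC of IL-27 replicate 10, the highest of the 6 libraries, against 242 to 470.2 CPM in the others, and their part in the Cabp4 ratio was not tested. In IL-27 replicate 5 the rod markers summed to the lowest level of the 6 libraries in rods (7600.3 CPM), cones (2585 CPM) and BC (242 CPM).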

How the results depend on the processing

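No paired analysis was possible. The authors injected each mouse in a single eye with IL-27 or saline, so a saline and an IL-27 library do not share an animal. The libraries of the groups share no replicate number either. The comparisons between cell types kept the library as a block throughout. For IL-27 against saline in rods, cones and BC, 510 values under 17 alternatives stayed on the same side of the threshold, none called, while 47 changed sign around 0. The 160 values of the difference between the effects in cones and rods also stayed uncalled, with 18 sign changes. The counts of genes called ran from 5 to 8 for cones against rods, 7 to 9 for BC against rods and 7 to 9 for BC against cones over all alternatives, those that left out 1 library included.

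Library totals in place of TMM turned the sign of 6 values between cell types, 4 of them called on either scale. Unc13b in cones against rods became -0.05318 (edgeR adjusted p = 0.377), Pclo and Cacna1f in BC against rods became -0.3007 and -0.2523 (edgeR adjusted p = 5.4e-06 and 0.000145), and Pclo in BC against cones became -0.2101. The other 2, Pclo in cones against rods (-0.09) and Rims2 in BC against cones (-0.08), were called on neither scale. Library totals move the median of all genes by the amounts given above. The call of Unc13b in cones against rods was also lost with DESeq2, without the filter, with the filter at 50 counts, at 1% mitochondrial UMIs and when any of saline 2, IL-27 4 and IL-27 5 was left out (edgeR adjusted p 0.0755 to 0.0924), and the cause was not tested. That of Cabp4 was lost with DESeq2 (adjusted p = 0.0851). Pclo in cones against rods passed when saline 6 (adjusted p = 0.0345) or IL-27 10 (0.0409) was left out, and in BC against rods lost its call under 4 alternatives of the nuclei or clusters and when saline 1, saline 6, IL-27 4 or IL-27 5 was left out (edgeR adjusted p 0.051 to 0.113). Cacna1f in BC against rods lost its call without doublet removal and at 1% mitochondrial UMIs. Rims2 in BC against cones passed with DESeq2, its size factors, no filter, or with saline 6 left out (edgeR adjusted p = 0.0375).

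Without doublet removal, each cluster took the name that most of its retained nuclei had in the main clustering, so those sums can mix types. Egflam in BC against rods was then -4.24, and the cause was not tested. The number of genes highest in rods or cones changed from 7 to 6 with thinned shares. In cones and in rare types the number of UMIs limits what can be seen. Intervals cover the spread of 3 libraries a group.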
